A study of Mus musculus with 8 samples.

Results

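The genes described here are 36 markers of cortical layers and of excitatory neuron identity, chosen by symbol from a list of upper layer, layer 4, layer 5, layer 6, layer 6b and pan-excitatory markers. The rule uses symbols and no measured value, but the list was drawn up with earlier results of these data known. All 36 were found among the 55416 genes of the deposited table, of which 32676 had a count in at least 1 library and 18627 received an adjusted p. RNA from the cerebral cortex of mice heterozygous for the Ago2 L192P missense allele (AGO2_L192P/+, called L192P, n = 4 libraries) was compared with that of wild-type mice (WT, n = 4 libraries). The L192P line is a knock-in made by genome editing in zygotes, with founders crossed to wild-type mice, so that every cell carries 1 mutant and 1 wild-type allele. The sources used here give neither age nor sex, and they do not say whether each library came from a separate animal, so p-values measure the spread between these libraries. AGO2 is the Argonaute protein that carries microRNAs to their target RNAs, and the comparison addresses whether the mutation alters gene expression in the brain.

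Excitatory neurons of the neocortex are generated in order, deep layers before upper layers, and take on identities set by transcription factors that partly repress each other. TBR1 marks corticothalamic neurons of layer 6, FEZF2 and BCL11B mark subcerebral projection neurons of layer 5, RORB marks layer 4, and CUX1 and CUX2 mark the upper layers. Layer 6b is the thin deepest layer, a remnant of the subplate. In the adult cortex many of these genes remain restricted to their layer, and others, such as synaptic proteins, became markers because of where they are expressed. In bulk tissue, fewer cells of a type and less RNA per cell cannot be told apart.

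Libraries held between 20396357 and 43575900 counts, and the lowest count of any member in any library was 59. Values below are normalised read counts, that is, counts divided by the DESeq2 size factor of the library. Ago2 itself was at 2291 ± 75.1 in L192P and 2246 ± 130.4 in WT (mean ± SD, n = 4 each), and gene counts do not show which allele was transcribed. Replicate 1 of both genotypes stood apart. It had at most 1.82 normalised counts of Xist, the RNA of the inactive X chromosome, against at least 5185 in the other 6 libraries. Its summed endothelial, astrocyte, oligodendrocyte and microglial marker counts were each the lowest of its genotype. The endothelial sums were 176 in L192P and 274 in WT. Libraries of the same replicate number deviated together from their group means. A second DESeq2 fit with the replicate number as a block is therefore given where it changed the call of a layer marker.

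The markers were abundant in WT cortex. Per kilobase of exon, WT levels ran from 24.2 for Scnn1a to 1678 for Lamp5, and 9 members were over 500 normalised counts per kilobase. The 9 included the layer 5 marker Pcp4, at 1414, the layer 6 marker Rprm, at 1261, and the pan-excitatory factors Mef2c, at 927, and Neurod6, at 814. The 3 members under 50 normalised counts per kilobase in WT were Scnn1a, Otx1 and Foxp2.

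**Figure D1:**
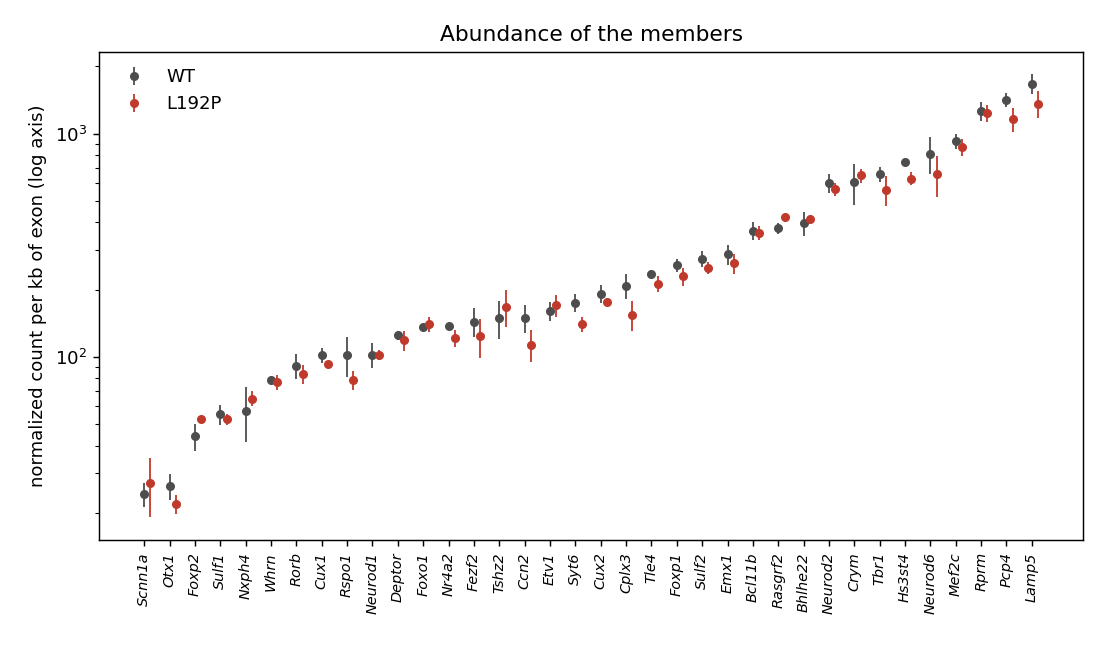
WT and L192P levels of the 36 members as normalised read counts per kilobase of exon on a log axis, ordered by WT level. Points are means and bars the SD (n = 4 each). Levels spanned 24.2 (Scnn1a) to 1678 (Lamp5) in WT.

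A set of 3 layer markers, all of deep layers, were lower in L192P cortex in the DESeq2 fit without a block, and none was higher. They were Syt6 and Hs3st4 of layer 6 and Cplx3 of layer 6b, that is 8.33% of the members. Syt6 fell by 19.9%, Hs3st4 fell by 15.6% and Cplx3 fell by 25.8%. Among all genes tested, 1.36% were called in either direction and 0.569% were called lower. With the replicate block, 10 members were called (27.8%), 9 of them lower and 1, Rasgrf2, higher, against 4.25% of the 12536 genes tested there in either direction and 2.43% lower. The 7 members added by the block were Lamp5, Rasgrf2, Pcp4, Tbr1, Ccn2, Neurod6 and Foxp1. Each of the 10 moved one way in all 4 same-numbered pairs, which a fit on differences within pairs favours. In edgeR without a block, no member was called, with 0.314% of all tested genes called, while 12 members had an unadjusted p under 0.05 in edgeR and also 12 in DESeq2, there 33.3% of members compared with 9.44% of tested genes. In edgeR with the block, 7 members were called, all lower (Syt6, Hs3st4, Cplx3, Ccn2, Lamp5, Neurod6 and Pcp4), with 3.04% of all genes called. In replicates 2 to 4 alone, DESeq2 without a block called Hs3st4, Lamp5 and Pcp4, all lower, and 3.46% of all genes tested there. When L192P replicates 1 and 3, the libraries with the most thalamic marker RNA, were left out, Neurod6 was the 1 member called, with 0.504% of all genes called.

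Across the 36 members, 26 (72.2%) had a log2 fold change below 0, compared with 49.4% of all tested genes. Members had a median log2 fold change of -0.12, and all tested genes one of 0.0019. Lower values in all 4 same-numbered pairs were found for 15 members (41.7%), compared with 11.4% of tested genes, and higher values in all 4 pairs for 3 members (8.33%), compared with 12.3%. The 3 were Rasgrf2, Etv1 and Foxp2. The 4 L192P and 4 WT libraries did not overlap for 6 members (16.7%), compared with 5.97% of tested genes. Syt6, Hs3st4, Tle4 and Nr4a2 were lower in all L192P libraries, and Rasgrf2 and Foxp2 were higher in all of them. Summed over the members, normalised counts were 65382 to 70765 in L192P and 71293 to 75669 in WT.

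**Figure D2:**
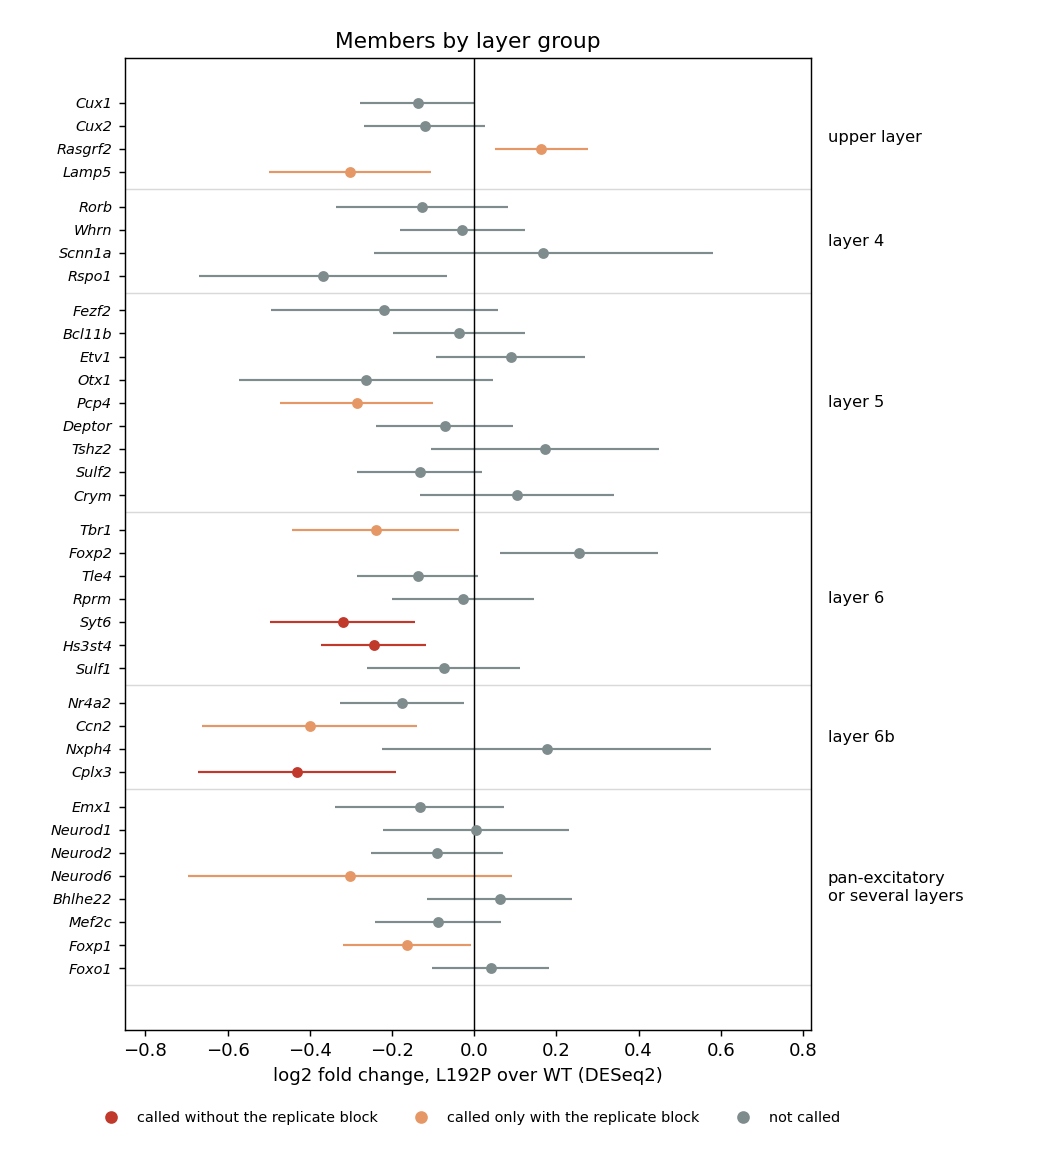
Log2 fold change (L192P over WT, DESeq2) of each member by layer group, with bars for the 95% interval. Red points passed without a block (Syt6, Hs3st4 and Cplx3), orange points passed only with the replicate block, and grey points passed in neither fit. A log2 fold change below 0 was found for 26 of the 36.

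Layer 6 contained 2 of the 3 members called without a block. Syt6 encodes synaptotagmin 6, a member of a family of vesicle membrane proteins, and marks corticothalamic neurons. Its normalised counts were 853, 896, 745 and 825 in L192P replicates 1 to 4 and 1068, 1032, 907 and 1138 in WT. Every L192P library was below every WT library, but by a narrow margin, since the highest L192P value was 896 and the lowest WT value 907. The log2 fold change of Syt6 was -0.32 with an SE of 0.09 and a DESeq2 adjusted p of 0.0331, or 0.00501 with the replicate block, and the exact permutation test over samples gave its smallest possible p, 0.0286. The lack of overlap alone fixes that value. Without L192P replicate 3, the adjusted p was 0.207, and in edgeR without a block it was 0.14.

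Hs3st4 encodes a heparan sulfate sulfotransferase, which modifies sugar chains at the cell surface, and also marks corticothalamic neurons. Its values were 2065, 1808, 2071 and 2077 in L192P and 2296, 2355, 2441 and 2416 in WT. The groups did not overlap, and 3 of the 4 L192P libraries lay between 2065 and 2077. The log2 fold change of Hs3st4 was -0.24 with an SE of 0.07 (DESeq2 adjusted p = 0.0195, or 0.00332 with the replicate block). Its adjusted p ranged from 0.00332 to 0.165 over the 18 alternatives.

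Syt6 (ENSMUSG00000027849) lies at chr3:103482484-103552885 on the plus strand and Hs3st4 (ENSMUSG00000078591) at chr7:123582092-123998212 on the plus strand, both in GRCm39 coordinates. A RefSeq promoter of each is shown because it contains the T-box half-site AGGTGT, the core of the motif bound by T-box factors such as TBR1. The other listed Syt6 promoters held no match to it on either strand. Nor did the promoter of Cplx3, the other member called without a block. Each promoter is 300 bases long, the last 50 of them after a transcription start, in GRCm38.p6 coordinates. The sequences were read 5′ to 3′ on the coding strand, capitals mark the half-site in its reverse complement, and the match begins 216 bases before the first of 3 listed Syt6 starts (chr3:103574995-103575294) and 236 bases before the Hs3st4 start (chr7:123982578-123982877).
Syt6: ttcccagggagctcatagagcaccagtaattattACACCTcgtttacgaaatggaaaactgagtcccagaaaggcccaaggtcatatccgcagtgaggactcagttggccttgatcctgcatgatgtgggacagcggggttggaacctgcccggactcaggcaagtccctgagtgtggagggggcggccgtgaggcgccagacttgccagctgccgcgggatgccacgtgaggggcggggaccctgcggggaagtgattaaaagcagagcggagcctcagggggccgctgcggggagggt
Hs3st4: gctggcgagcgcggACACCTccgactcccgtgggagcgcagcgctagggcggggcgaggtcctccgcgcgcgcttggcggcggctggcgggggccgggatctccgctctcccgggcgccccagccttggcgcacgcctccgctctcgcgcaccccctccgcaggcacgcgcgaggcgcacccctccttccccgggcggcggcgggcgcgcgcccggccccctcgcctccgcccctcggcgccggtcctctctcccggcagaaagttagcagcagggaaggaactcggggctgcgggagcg

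On both strands, AGGTGT was found in 13.7% of the 32851 RefSeq promoters in the table and in 5 of the 39 listed promoters of the 27 members that matched, those of Syt6, Hs3st4, Neurod1, Neurod6 and Mef2c. The E-box CAGATG, of the kind bound by NEUROD factors, was found in 17.2% of all promoters and in 5 member promoters (Cux2, Lamp5, Etv1, Neurod2 and Mef2c). A second E-box, CATATG, was found in 3.91% of all promoters and in 3 member promoters (Neurod1, Neurod2 and Mef2c). These counts describe letters, not binding. The motifs were chosen after the expression values had been seen.

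Because AGO2 acts through microRNA seeds, 3′ untranslated regions of the members were searched for perfect matches to bases 2 to 8 of 8 microRNAs, most of them abundant in brain. The neuron-enriched miR-124-3p was not searched, because its sequence was missing from the reference used. Of the 3 members called without a block, Hs3st4 had a match to miR-125b-5p and Cplx3 a match to miR-128-3p, and the Syt6 untranslated region held none of the 8. Of the 7 added by the block, Rasgrf2 had matches to let-7a-5p, miR-9-5p, miR-26a-5p and miR-128-3p, Ccn2 to miR-9-5p and miR-125b-5p, and Tbr1 and Neurod6 to miR-128-3p. Lamp5 and Pcp4 had none, and no untranslated region of Foxp1 was searched. The mature sequences are given with the seed in capitals, and each site with 30 bases in all and the match in capitals. The Hs3st4 site is at chr7:123997852-123997881 (GRCm39, plus strand) and the Cplx3 site at chr9:57508838-57508867 (GRCm39, minus strand).
miR-125b-5p: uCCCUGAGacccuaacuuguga
Hs3st4 site: gatgctgccccCTCAGGGtcacctcatggt
miR-128-3p: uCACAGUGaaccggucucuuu
Cplx3 site: cacacagctgcCACTGTGggttctgggagc

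For miR-125b-5p, 7 of 35 member untranslated regions had a match, compared with 17.2% of the 14891 regions of tested genes, and for miR-128-3p, 11 of 35 had one, compared with 24.5%. The other 6 microRNAs had a match in 4 (let-7a-5p), 7 (miR-9-5p), 6 (miR-26a-5p), 2 (miR-29a-3p), 7 (miR-138-5p) and 4 (miR-92a-3p) of the 35 regions. Their shares over all regions were 11.6%, 15.5%, 12.1%, 16.7%, 15.7% and 8.07%, in the same order. The microRNAs too were chosen after the expression values had been seen.

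The remaining layer 6 markers varied in direction. Tbr1, the T-box factor of corticothalamic neurons, was at 3222, 3224, 2380 and 3439 in L192P and 3343, 3684, 3470 and 3983 in WT. L192P replicate 3 was lowest, and the 2 groups overlapped. Tbr1 was called with the replicate block (log2 fold change -0.25, DESeq2 adjusted p = 0.0147), not without it (-0.24, adjusted p = 0.36), and in edgeR with the block it had an adjusted p of 0.063. Tle4, a Groucho family corepressor, was at 1522, 1598, 1327 and 1584 in L192P and 1636, 1627, 1607 and 1764 in WT. Its values did not overlap, but its log2 fold change was -0.14 with an adjusted p of 0.587. Foxp2, a forkhead repressor, was at 913, 883, 905 and 919 in L192P and 820.5, 646, 701 and 872 in WT. Every L192P library was above every WT library. The log2 fold change of Foxp2 was 0.26 ± 0.10 (SE; adjusted p = 0.236, or 0.0694 with the block). Rprm and Sulf1, with log2 fold changes of -0.03 and -0.07, had adjusted p-values of 0.984 and 0.922. The median log2 fold change of the 7 layer 6 markers was -0.14, 2 being called lower without a block and 3 with it, and their summed counts were 9699 to 11375 in L192P and 11442 to 12620 in WT.

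In layer 6b, the deepest layer, 1 of the 4 markers was called without a block and 2 with it. Cplx3 encodes complexin 3, which regulates vesicle fusion at synapses, and is also known in a class of cortical interneurons. Its values were 449, 571, 465 and 404 in L192P and 735, 626, 534 and 649.7 in WT. L192P replicate 2 lay above WT replicate 3, so that the groups overlapped. With that overlap, the exact permutation test could not reach its smallest p, 0.0286. The log2 fold change of Cplx3 (ENSMUSG00000039714, chr9:57507275-57513575, minus strand, GRCm39) was -0.43 with an SE of 0.12, the largest decrease among the members, with a DESeq2 adjusted p of 0.0382, or 0.0119 with the replicate block. Its adjusted p was 0.16 in replicates 2 to 4 alone and 0.464 when L192P replicates 1 and 3 were left out.

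Ccn2, a secreted matricellular protein and marker of layer 6b, was at 357, 435, 293 and 359 in L192P and 575, 464, 415 and 451 in WT. L192P replicate 2 lay above WT replicate 3, so that the groups overlapped. Ccn2 was called with the replicate block (log2 fold change -0.40, DESeq2 adjusted p = 0.0338), not without it (adjusted p = 0.124). Nr4a2, an orphan nuclear receptor, was at 1090.3, 1013, 889 and 988 in L192P, all below the WT values of 1126, 1164, 1094 and 1111, and its adjusted p was 0.375. Nxph4, a secreted ligand of neurexins, had the fewest counts of the group and a log2 fold change of 0.18 ± 0.20 (SE). The summed counts of the 4 markers were 1764 to 2119 in L192P and 2107 to 2565 in WT.

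**Figure D3:**
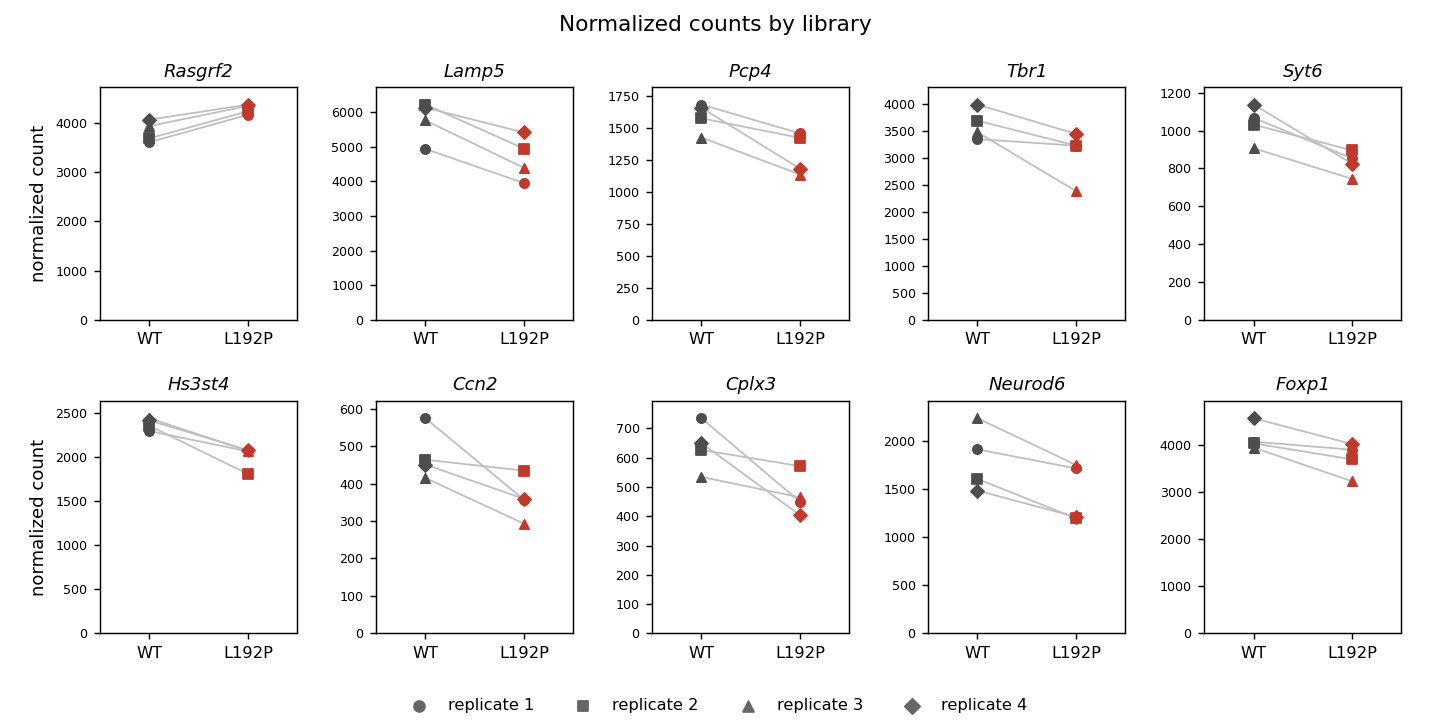
Normalised read counts of the 10 members called in either DESeq2 fit, with lines joining L192P and WT libraries of the same replicate number and axes starting at 0. All 4 lines slope the same way in each panel, down from WT to L192P in 9 panels and up for Rasgrf2. The block favours genes with such agreement between pairs.

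In layer 5, none of the 9 markers was called without a block and Pcp4 was called with it. Pcp4 encodes a small calmodulin regulator and was at 1457, 1422, 1136 and 1181 in L192P and 1683, 1575, 1425 and 1658 in WT. L192P replicate 1 lay above WT replicate 3, and the other 3 L192P libraries lay below all WT libraries. Pcp4 had a log2 fold change of -0.29 with an SE of 0.10 and an adjusted p of 0.122, which was 0.0053 with the replicate block in DESeq2 and 0.0253 with it in edgeR. The transcription factors of layer 5, Fezf2 (-0.22), Bcl11b (-0.04), Etv1 (0.09) and Otx1 (-0.26), were not called in any of the fits (these are log2 fold changes). Fezf2 was at 590.4, 409.7, 400.1 and 423 in L192P and 626, 559.8, 491 and 445 in WT. Each L192P library was below its WT partner, but the adjusted p was 0.701, or 0.307 with the block. Bcl11b was at 3375 ± 248 in L192P and 3465 ± 326 in WT, Etv1 at 2379.7 ± 268 and 2239 ± 220.1, and Otx1 at 125 ± 12.3 and 149.9 ± 19.4 (mean ± SD, n = 4 each). Their adjusted p-values were 0.969, 0.887 and 0.651. Crym, a thyroid hormone binding protein, had the widest WT spread of the layer 5 markers, 1833 to 3027, and a log2 fold change of 0.10. Deptor, an inhibitor of mTOR, Tshz2, a zinc finger factor, and Sulf2, an extracellular sulfatase, had log2 fold changes of -0.07, 0.17 and -0.13, respectively.

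With the block, 1 of the 4 upper layer markers was called lower and 1 higher. Lamp5, a membrane protein of the lysosome-associated family that marks layers 2 and 3 and also a class of interneurons, was at 3953, 4950.2, 4393 and 5418 in L192P and 4941, 6225, 5768 and 6136 in WT. Replicate 1 was the lowest library in both genotypes, and each L192P library was below its WT partner. The log2 fold change of Lamp5 was -0.30 with an SE of 0.10 without the block (adjusted p = 0.123) and -0.31 with an SE of 0.05 with it (adjusted p = 4.66e-07). With the block in edgeR, its adjusted p was 0.00343. In replicates 2 to 4 alone, DESeq2 without a block gave an adjusted p of 0.00458. Rasgrf2, an exchange factor for Ras and Rac, was higher in every L192P library than in every WT library, at 4169.5, 4241, 4348 and 4377 compared with 3611, 3689, 3940.0 and 4069. Its log2 fold change was 0.16 with an SE of 0.06, and its adjusted p was 0.166, or 0.025 with the block in DESeq2 and 0.0544 with it in edgeR. The homeobox factors Cux1 and Cux2 had log2 fold changes of -0.14 and -0.12 and adjusted p-values of 0.541 and 0.683. Cux1 was at 2242 ± 81.1 in L192P and 2467 ± 197 in WT, and Cux2 at 2004 ± 61.0 and 2176 ± 199.6 (mean ± SD, n = 4 each). For both, L192P replicate 1 was slightly above its WT partner and the other 3 pairs were lower in L192P.

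None of the 4 layer 4 markers was called in any fit. The nuclear receptor gene Rorb was at 928 ± 88.6 in L192P and 1013 ± 133 in WT (mean ± SD, n = 4 each), a log2 fold change of -0.13 with an interval of -0.34 to 0.08 (95%). Rspo1, a secreted enhancer of Wnt signalling, had a log2 fold change of -0.37 with an SE of 0.15, but an adjusted p of 0.333. Whrn, a scaffold protein, and Scnn1a, a subunit of the epithelial sodium channel, had log2 fold changes of -0.03 and 0.17 with intervals of -0.18 to 0.12 and -0.25 to 0.58.

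Of the 8 genes shared by many excitatory neurons or by several layers, none was called without a block and 2, Neurod6 and Foxp1, were called lower with it. Neurod6, a basic helix-loop-helix factor of cortical projection neurons, was at 1717, 1198, 1754 and 1212 in L192P and 1916, 1608, 2239.9 and 1487 in WT. Replicates 1 and 3 were higher than replicates 2 and 4 in both genotypes, and each L192P library was below its WT partner. Its log2 fold change was -0.30 with an SE of 0.20 without the block (adjusted p = 0.721) and -0.31 with an SE of 0.07 with it (adjusted p = 0.000661). With the block in edgeR, the adjusted p of Neurod6 was 0.0129. The forkhead factor Foxp1, which is also abundant in the striatum, was at 3897, 3692, 3226 and 4016 in L192P and 4067, 4031, 3942 and 4564 in WT. The groups overlapped, and each L192P library was below its WT partner. Foxp1 had a log2 fold change of -0.16 and an adjusted p of 0.0498 with the block in DESeq2, 0.485 without it, and 0.0861 with the block in edgeR. The other 6 members of this group, the homeobox factor Emx1, the helix-loop-helix factors Neurod1, Neurod2 and Bhlhe22, Mef2c and the forkhead factor Foxo1, had log2 fold changes between -0.13 and 0.06. Mef2c, a MADS-box factor and the member with the most counts, was at 14930.4 ± 1315 in L192P and 15883 ± 1244 in WT, and Neurod2 was at 2104 ± 139.7 and 2241 ± 216 (mean ± SD, n = 4 each). Emx1 was lower in all 4 pairs, at 574 ± 59.4 and 628 ± 63.6, with an adjusted p of 0.802. Neurod1 had the same mean in both genotypes, 309, and a log2 fold change of 0.00 with an interval of -0.22 to 0.23. Bhlhe22 and Foxo1 had adjusted p-values of 0.939 and 0.954.

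**Figure D4:**
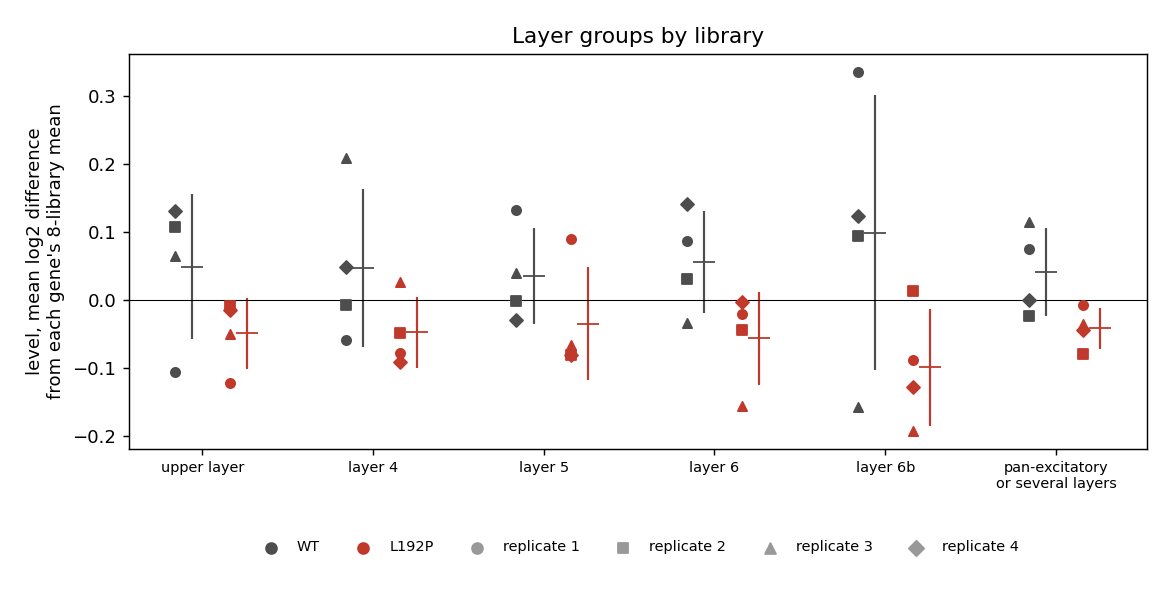
Level of each layer group in each library, as the mean over its genes of log2(normalised count + 1) minus the gene's mean over the 8 libraries, with marks for the group mean ± SD (n = 4 each). The mean level was lower in L192P in all 6 groups, and the 2 genotypes overlapped in each.

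By layer, median log2 fold changes were -0.13 for the upper layers, -0.08 for layer 4, -0.07 for layer 5, -0.14 for layer 6, -0.29 for layer 6b and -0.09 for the pan-excitatory group. The mean level of layer 6b was -0.099 ± 0.086 in L192P and 0.099 ± 0.20 in WT, and that of layer 6 was -0.056 ± 0.068 and 0.056 ± 0.075 (mean ± SD, n = 4 each, log2 scale). Differences between layer groups were not tested. The 26 members called in neither DESeq2 fit had log2 fold changes from -0.37 to 0.26. The SE of a member ranged from 0.06 to 0.21, with a median of 0.094.

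Other layer markers gave a mixed picture. Among 9 further upper layer and layer 4 genes, 1 was called, Otof, which was higher in L192P. Otof encodes otoferlin, a calcium sensor of vesicle release, and was at 533, 681, 633 and 558 in L192P and 412, 419.7, 392.2 and 376 in WT. Otof had a log2 fold change of 0.58 with an SE of 0.10, an adjusted p of 7.02e-06 in DESeq2 and 0.0184 in edgeR. Among 12 further layer 5 genes, of which 11 were tested, 0 were called in DESeq2, with or without the block, and 0 in edgeR, although 2 had an unadjusted p under 0.05 in each tool. Among 10 further layer 6 and 6b genes 1 was called, the neurexophilin gene Nxph3, at 680.1 ± 79.8 in L192P and 893 ± 68.0 in WT (log2 fold change -0.39, DESeq2 adjusted p = 0.0109, or 0.000732 with the replicate block), and the median of the 10 was 0.10. Among 8 further pan-excitatory genes, all below 0 with a median of -0.15, Arpp21 was called lower (-0.39, DESeq2 adjusted p = 0.0143) and the block added Nrgn and Slc17a7, both lower. The summed counts of these 8 genes were 159411 to 168863 in L192P and 171025 to 198496 in WT, with no overlap.

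Of the marker lists for neighbouring tissue and other cell types, only the striatal and immature neuron sums did not overlap between the genotypes. Sums are ruled by the most abundant genes. On the level scale, the striatal and thalamic lists did not overlap and the immature neuron list did. The 9 striatal markers reported were all below 0, with summed counts of 30624 to 37655 in L192P and 40266 to 49261 in WT. Of these 9, Penk was called lower without a block and 5 were called lower with it. All 7 thalamic markers were above 0, with summed counts of 2208 to 5510 in L192P and 2106 to 2648 in WT, and Gbx2 was called higher without a block. The 2 highest thalamic sums, 4270 and 5510, belonged to L192P replicates 1 and 3, and those of L192P replicates 2 and 4 lay within the WT range. As mean levels on the log2 scale, which weigh genes equally, L192P replicates 2 and 4 were at -0.089 and -0.288. Both were above the highest WT level, -0.291, the second by a narrow margin. Of 6 hypothalamic markers, Avp and Oxt were called higher without a block, with sums of 79.7 to 1120 in L192P and 58.7 to 203 in WT, and Pmch and Hcrt were at 0 in at least 1 library. Without L192P replicates 1 and 3, 1 member was called, Neurod6 (log2 fold change -0.59, DESeq2 adjusted p = 0.0048). That fit kept WT replicates 1 and 3, in which Neurod6 was highest, and the log2 ratios of Neurod6 within pairs 2 and 4 were -0.42 and -0.29. The medians of all 6 layer groups stayed below 0, from -0.21 for layer 6b to -0.05 for the pan-excitatory group. L192P replicates 2 and 4, kept in that fit, had striatal sums of 37655 and 37642, below all WT sums. Their hypothalamic sums were 79.7, within the WT range, and 521, above all WT sums. The part of tissue composition in the layer marker differences was not tested.

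Among 8 interneuron markers Gad2 was called higher (log2 fold change 0.34), and with the block Adarb2 was also higher and Pvalb lower. The interneuron sums overlapped between the genotypes, at 30559 to 33917 in L192P and 28371 to 32567 in WT, and those of 5 immature neuron markers did not. These had sums of 1125 to 1275 in L192P and 1009 to 1080 in WT, with Eomes called higher without a block (log2 fold change 1.70). Of the 5, 4 were tested, and 1 of those was below 0, at -0.79. With the replicate block Avp was called, while Oxt, Gbx2 and Eomes received no adjusted p in DESeq2, since independent filtering removed genes of low mean count, and in edgeR with the block their adjusted p-values were 0.000186, 0.0303 and 0.0484. No call was made without a block among 6 hippocampal (1209 to 2628 in L192P, 1006 to 2469 in WT), 3 claustral (5455 to 6329, 5956 to 6440), 6 astrocyte (24198 to 38840, 25846 to 38172), 6 oligodendrocyte (88006 to 123857, 89791 to 127974), 6 microglial (4615 to 8272, 4869 to 6205) and 4 endothelial markers (176 to 856, 274 to 726). The highest hippocampal sum of each genotype was in replicate 3, at 2628 in L192P and 2469 in WT, against at most 1524 in the other libraries. With the block, the microglial receptor Cx3cr1 was called higher.

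**Figure D5:**
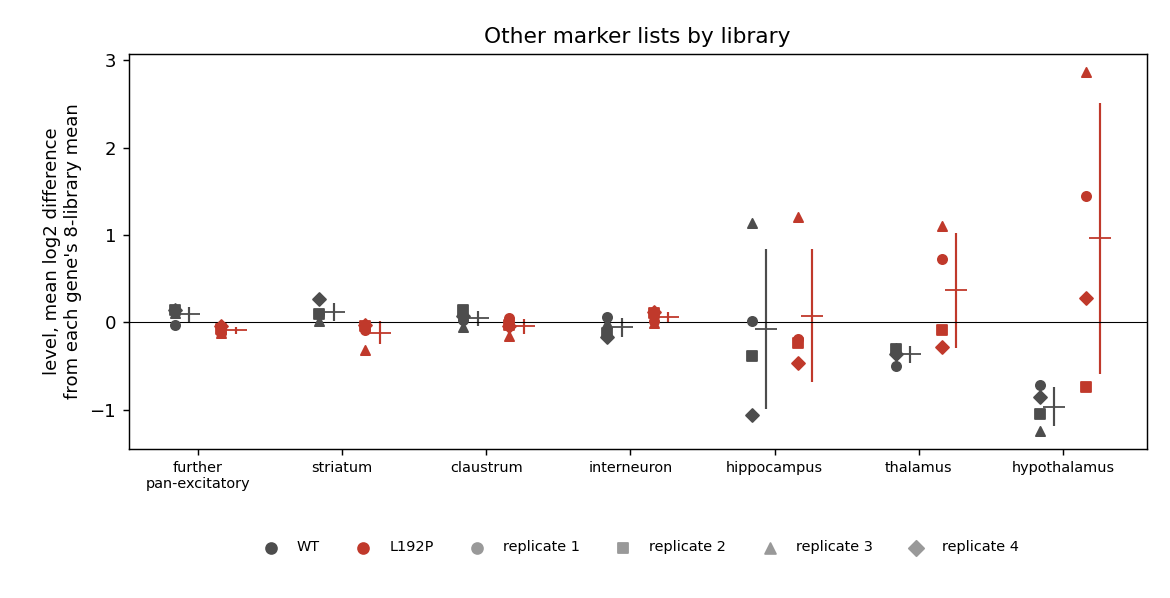
Level of the further pan-excitatory, striatal, claustral, interneuron, hippocampal, thalamic and hypothalamic markers in each library, on the same scale as the layer groups, with marks for the mean ± SD (n = 4 each). Striatal levels were lower and thalamic and hypothalamic levels higher on average in L192P, with L192P replicate 3 the most distant L192P library in each of these 3 lists.

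Counting could blur some values. Exons of 15 members overlap an annotated exon on the opposite strand, among them Syt6, Hs3st4, Ccn2, Neurod6 and Rasgrf2, and without a stated strand setting the reads of such partners cannot be told apart. Exons of 3 members, Pcp4, Neurod1 and Foxp1, overlap another gene on the same strand. No overlap was annotated for Cplx3, Lamp5 or Tbr1.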

How the data were processed

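The members and the gene lists were chosen with earlier results of these data known. Per the labels, RNA was extracted with an RNeasy micro kit and made into TruSeq Stranded mRNA libraries. The deposited values used here are raw counts per gene, made by the authors with STAR 2.7.9a on GRCm39 and featureCounts 1.5.1 according to the processing notes. The Ensembl release and strand setting are not given in the sources used here. The second deposited table, normalised by the authors with DESeq2 1.40.2, was not used.

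DESeq2 1.42.0 in R 4.3.3 compared the genotypes over all genes, with no other covariate, after median-of-ratios scaling and with independent filtering, following the study's methods, and genes with a Benjamini-Hochberg adjusted p under 0.05 were called. All members are named, with values in every library where called in either DESeq2 fit or where groups did not overlap, and genes of other lists are named where called. Values of Fezf2 in every library, and the markers Pmch and Hcrt, were added after values were seen. A gene of the striatal list is not reported here, and the values of that list were computed without it. Alternatives used edgeR 4.0.16 (quasi-likelihood), limma-voom 3.58.1, TMM or total-count size factors, a filter of 10 counts in 4 libraries, no independent filtering, a replicate block, and fewer libraries. Deviations from group means correlated at 0.23 to 0.63 for the 4 same-numbered pairs and at -0.38 to 0.14 for the 12 other pairs, over genes with a mean of at least 50 normalised counts, so the numbers were taken to pair the libraries. No 2 libraries of the same genotype were duplicates (chi-square per degree of freedom at least 5.52), and pairs across genotypes were not compared in this way. Scripts were tested on simulated data. Totals were 20396357 to 43575900 counts, and replicates differed by more than counting alone gives (chi-square per degree of freedom 5.52 to 22.6). Gene coordinates and exons came from GENCODE M39 (98.8% of identifiers matched).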

Additional observations from a re-analysis of the deposited data

Results flagged for a closer look

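Among 86 groups of 4 libraries, 8 had 1 library far from the other 3, where chance alone gives about 1 in 20, or 4.3. Rorb was at 815 in WT replicate 1, below 1062 to 1104 in the other WT libraries. Rprm was at 2104 in WT replicate 1, above 1723 to 1779. Fezf2 was at 590.4 in L192P replicate 1, above 400.1 to 423, and Etv1 was at 2778 in the same library, above 2200.5 to 2294. The mean level of the 9 layer 5 markers was 0.089 in L192P replicate 1, compared with -0.082 to -0.067 in the other L192P libraries. Tshz2 was at 1744 in L192P replicate 3, above 1197 to 1255. Hs3st4 was at 1808 in L192P replicate 2, below 2065 to 2077, and without that library its adjusted p in DESeq2 was 0.138. Foxo1 was at 1311 in WT replicate 4, above 1239 to 1248. All are normalised read counts except the layer 5 level, which is on a log2 scale.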

How the results depend on the processing

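Each member was recomputed under 18 alternatives, which gave 648 values, of which 577 kept direction and side of the threshold, 33 lost and 19 gained a call, and 19 changed direction. The number of members called, 3 in DESeq2, became 0 in edgeR and in limma-voom, 1 with total-count size factors (Rasgrf2, so 0 lower), 1 lower without independent filtering, 10 (9 lower) with the replicate block in DESeq2, 7 (all lower) with the block in edgeR, and 1 lower when L192P replicates 1 and 3 were left out, a choice made after seeing the data. Leaving out 1 library gave 0 to 3 members, and 0 to 3 lower. For all genes, 253 calls became 53 (edgeR), 45 (limma-voom), 533 (block in DESeq2), 513 (block in edgeR), 500 (replicates 2 to 4 only), 91 (without L192P replicates 1 and 3) and 112 to 496 when 1 library was left out, the highest without WT replicate 1. Total-count scaling gave 168 higher and 64 lower calls, compared with 147 and 106. Replicates 2 to 4 alone also gave 3 members, Hs3st4, Lamp5 and Pcp4. Syt6 was no longer called when any of L192P 3, L192P 4, WT 1, WT 2 or WT 4 was left out (adjusted p up to 0.254). The same held for Hs3st4 with L192P 2, 3 or 4 and WT 2, 3 or 4 (up to 0.165), and for Cplx3 with L192P 1, 3 or 4 and WT 1, 2 or 4 (up to 0.203).

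Changes of direction touched 6 members, none of them called. In replicates 2 to 4, log2 fold changes were 0.014 for Whrn, 0.0056 for Rprm and -0.011 for Neurod1, and without L192P replicates 1 and 3 they were 0.010 for Whrn, -0.18 for Scnn1a, -0.0089 for Etv1, 0.00041 for Rprm and -0.058 for Neurod1, which was -0.0025 with TMM factors. Leaving out 1 library gave -0.082 to 0.00016 for Whrn, -0.030 to 0.30 for Scnn1a, -0.096 to 0.0089 for Bcl11b, -0.065 to 0.044 for Rprm and -0.044 to 0.082 for Neurod1. The cause was not tested. The median of each layer group stayed below 0 under all 18 alternatives. With 4 libraries a group, the median SE of a member was 0.094 on the log2 scale, close to the median difference of -0.12, so single small differences could not be told from the spread between libraries.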
